A study of Mus musculus with 2 samples.

Results

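The 9 genes described here, Pcp2, Pcp4, Calb1, Car8, Itpr1, Slc1a6, Rgs8, Ppp1r17 and Gng13, are calcium and G protein signalling genes for which Purkinje cells of the cerebellum are known. They were taken by gene symbol from a table of 23746 gene records, and all 9 were found, each at 1 locus. They were measured by RNA sequencing in 2 mouse medulloblastomas, 1 library per genotype. Medulloblastoma arises in the cerebellum. The wild-type animal was CAG-CreER, Rosa26-SmoM2, Brg1+/+ and the knockout animal was CAG-CreER, Rosa26-SmoM2, Brg1F/F, so that the SmoM2 transgene (an activated Smoothened, which switches on Hedgehog signalling) and the tamoxifen-inducible Cre were shared by both. Both received 10 tamoxifen injections. CAG is a broadly active promoter, so the labels do not restrict recombination to tumour cells, and the RNA came from dissected tumour tissue. With 1 library per genotype there is no error, no test and no p-value for any value below, and what differs between the animals cannot be told apart from what differs between the genotypes.

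Purkinje cells are the large GABAergic output neurons of the cerebellar cortex. Glutamate from parallel fibres acts on them through metabotropic signalling by G proteins and phospholipase C, which makes inositol trisphosphate. This opens the receptor channel encoded by Itpr1 and releases calcium from the endoplasmic reticulum. Buffers, calmodulin-binding proteins and regulators of G proteins shape the signal. Purkinje cells are not the cells from which Hedgehog-type medulloblastoma arises, which are granule neuron precursors.

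Values are FPKM as the authors deposited them, fragments scaled to transcript length and to the size of the library, so levels can be set side by side between genes. The FPKM of all records summed to 388032 in the wild-type and 343028 in the knockout library, and the number of reads is unknown. Smarca4, the floxed gene, which encodes the chromatin remodelling ATPase Brg1, measured 14.0 FPKM in the wild-type library against 3.76 FPKM in the knockout. FPKM of the whole gene does not give the share of cells with the deletion. Xist (268.3 and 0.369 FPKM) and the Y-linked gene Ddx3y (0.00687 and 25.1 FPKM) also differed, so that sex and genotype cannot be told apart in these libraries. All 8 markers of dividing tumour cells were lower in the knockout by at least 2-fold, and their summed level was 658.4 FPKM with wild-type Brg1 and 135.6 FPKM in the knockout. In bulk tissue, more cells of a type and more RNA per cell cannot be told apart.

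Promoter sequence in the RefSeq-based table (build GRCm38.p6, the assembly that mm10 names) was matched for 5 of the 9 genes, Pcp2, Pcp4, Slc1a6, Rgs8 and Gng13. Pcp2 had 4 start sites there, Rgs8 had 3 and Gng13 had 2. For each gene only the start site nearest the upstream end of its record was used, and other start sites were not searched. The 250 bases before the start site are printed for 3 of them, because Pcp2 had the highest fold difference of the 9 genes and Slc1a6 and Pcp4 had the lowest. Capitals mark AGGTCA, a site bound by many nuclear receptors, among them the Purkinje cell factor encoded by Rora, read on either strand.
Pcp2, chr8:3625548-3625797, minus strand: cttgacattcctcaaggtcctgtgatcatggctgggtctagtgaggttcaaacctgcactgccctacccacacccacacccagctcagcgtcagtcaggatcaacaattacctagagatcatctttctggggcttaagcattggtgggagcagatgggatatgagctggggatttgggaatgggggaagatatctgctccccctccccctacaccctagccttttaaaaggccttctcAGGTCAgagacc
Pcp4, chr16:96467356-96467605, plus strand: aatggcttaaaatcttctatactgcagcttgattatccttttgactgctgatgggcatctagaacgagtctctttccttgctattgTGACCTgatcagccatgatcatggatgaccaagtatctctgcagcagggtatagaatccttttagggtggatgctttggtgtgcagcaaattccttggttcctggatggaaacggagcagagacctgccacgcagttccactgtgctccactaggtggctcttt
Slc1a6, chr10:78780246-78780495, plus strand: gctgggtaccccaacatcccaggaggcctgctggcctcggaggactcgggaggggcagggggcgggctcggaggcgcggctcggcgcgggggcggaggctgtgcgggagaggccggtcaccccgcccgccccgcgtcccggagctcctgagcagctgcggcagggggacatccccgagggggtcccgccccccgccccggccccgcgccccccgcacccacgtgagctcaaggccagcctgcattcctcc

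The motif AGGTCA (or TGACCT on the other strand) was in 2 of the 5 matched promoters, Pcp2 and Pcp4, searched over 300 bases from 250 before to 50 after the start. It was in 16.3% of all 32851 windows of that length. In Pcp2 it lay at -12 to -7 from the start and in Pcp4 at -164 to -159, in the opposite orientation. The longer TAGGTCA (2.61% of windows, an extension of the same motif), the palindrome of the EBF factors (0.904%), TGACGTCA, the cyclic AMP response element (1.79%), and TATAAA (13.6%) were each in 0 of the 5, on both strands. The printed stretches also differed in base composition, with 52.8% G or C in Pcp2, 46.8% in Pcp4 and 78.8% in Slc1a6. A match describes letters in this window and is not a binding site, and these motifs did not separate the gene with the highest fold from those with the lowest.

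All 9 genes were higher in the knockout library, by quotients of FPKM that ran from 33.1-fold for Slc1a6 to 229-fold for Pcp2. In the wild-type library they lay between 0.460 and 3.79 FPKM, and in the knockout library between 38.1 and 149.4 FPKM, so the ranges of the libraries did not overlap for any pairing of these genes. Their sum was 14.2 FPKM in the wild-type library against 898 FPKM in the knockout, a 63.1-fold difference. The sum made up 0.00367% of all FPKM in the wild-type and 0.262% in the knockout library. All 9 records had the status OK in both libraries.

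**Figure D1:**
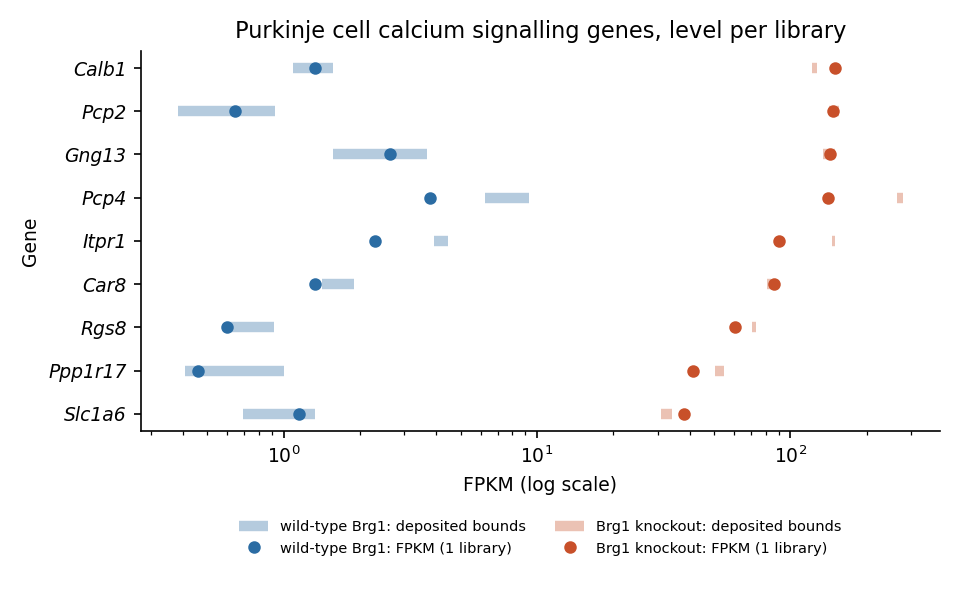
Level of each of the 9 genes in FPKM (log axis) in the wild-type library (blue) and the knockout library (orange), 1 library each. Points are deposited FPKM and bars the deposited lower and upper bounds, and the wild-type points (0.460 to 3.79) and knockout points (38.1 to 149.4) do not overlap.

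To rank the genes in the whole table, the log2 ratio log2((knockout FPKM + 1)/(wild-type FPKM + 1)) was taken over 13279 expressed records, those of at least 1 FPKM in at least 1 library. A record at or past 2-fold on this scale was called. All 9 genes were called higher, against 16.1% of expressed records. Records called lower made up 8.67%. All 9 were also at least 16-fold higher, against 0.535% of expressed records (71 records). The median log2 ratio of the 9 genes was 5.23, and that of all expressed records 0.09. Pcp2 ranked 13 and Slc1a6 ranked 60 among 13279 records. The 12 records above Pcp2 were all listed at 0 FPKM in the wild-type library, most of them small RNA genes. The range of the 9 genes, from 4.18 to 6.50, held 39 other records. Many of these were also listed at 0 in the wild-type library. Others, such as Gabra6 (1.24 FPKM there) and Pvalb (10.9 FPKM), were above 0, so the range was not that of the 9 genes alone.

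Proteins that set the G protein signal come first. Pcp2, also called L7, encodes a Purkinje and retinal bipolar cell protein that binds inhibitory G protein alpha subunits (mm10, chromosome 8, 3623371 to 3625545). It measured 0.644 FPKM in the wild-type library against 147.5 FPKM in the knockout, a 229-fold difference (log2 ratio 6.50). It was the highest of the 9 in fold, and moved from place 7 in the order of wild-type levels (place 9 by the midpoints of the deposited bounds) to place 2 in the knockout library. Its record overlaps that of 2900053A13Rik, which had 8.15 and 9.60 FPKM, and whether the counting used strand is not given in the sources used here.

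Rgs8 encodes a regulator of G protein signalling that speeds the return of G protein alpha subunits to rest (chromosome 1, 153653037 to 153697665). It measured 0.597 FPKM in the wild-type library against 60.6 FPKM in the knockout, a 102-fold difference (log2 ratio 5.27). Gng13 encodes a G protein gamma subunit, known from taste cells and retinal bipolar cells as well (chromosome 17, 25717172 to 25719102). It measured 2.62 FPKM in the wild-type library against 143.1 FPKM in the knockout, a 54.6-fold difference (log2 ratio 5.31). The end of its record overlaps that of Chtf18, a replication gene that differed the other way, with 12.7 and 2.57 FPKM.

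On the calcium release side, Itpr1 encodes the inositol trisphosphate receptor channel (chromosome 6, 108213096 to 108551116). It measured 2.30 FPKM in the wild-type library against 90.5 FPKM in the knockout, a 39.3-fold difference (log2 ratio 4.79). Car8 encodes a carbonic anhydrase-related protein without enzyme activity that binds this receptor and lowers its affinity for inositol trisphosphate (chromosome 4, 8141493 to 8239041). It measured 1.32 FPKM in the wild-type library against 86.3 FPKM in the knockout, a 65.1-fold difference (log2 ratio 5.23). The level of Car8 over that of Itpr1 was 0.575 with wild-type Brg1 and 0.953 in the knockout from FPKM, and 0.395 and 0.556 from bound midpoints, so on both scales the gene of the inhibitor gained on that of the channel.

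Calb1 encodes calbindin, a fast calcium buffer (chromosome 4, 15881264 to 15906709). It measured 1.33 FPKM in the wild-type library against 149.4 FPKM in the knockout, a 112-fold difference (log2 ratio 6.01). Pcp4 encodes a small protein that binds calmodulin and speeds its exchange of calcium, and is also made in other neurons (chromosome 16, 96467606 to 96525793). It measured 3.79 FPKM in the wild-type library against 141.0 FPKM in the knockout, a 37.2-fold difference (log2 ratio 4.89). By FPKM Calb1 was the most abundant of the 9 genes in the knockout library and Pcp4 in the wild-type library. By bound midpoints Pcp4 was the most abundant in both libraries, and Calb1 stood at place 5 in both.

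Slc1a6 encodes the glutamate transporter of Purkinje cell spines (chromosome 10, 78780496 to 78814825). It measured 1.15 FPKM in the wild-type library against 38.1 FPKM in the knockout, a 33.1-fold difference (log2 ratio 4.18), the lowest of the 9 on both scales. Ppp1r17 encodes G-substrate, a protein phosphatase inhibitor that is switched on by the cyclic GMP-dependent kinase (chromosome 6, 56017515 to 56032688). It measured 0.460 FPKM in the wild-type library against 41.1 FPKM in the knockout, an 89.4-fold difference (log2 ratio 4.85). These were the least abundant of the 9 genes in the knockout library.

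The size of the difference was not even across the genes. The highest quotient of FPKM was 6.93 times the lowest, and the SD of the log2 quotients over the 9 genes was 0.91, about a median of 65.1-fold. Without Pcp2 the highest was 3.39 times the lowest and the SD was 0.69. In order, Pcp2 stood alone at 229-fold, Calb1, Rgs8 and Ppp1r17 lay from 89.4 to 112-fold, Car8 and Gng13 at 65.1 and 54.6-fold, and Itpr1, Pcp4 and Slc1a6 from 33.1 to 39.3-fold. Adding 1 FPKM to each value compressed the genes that were lowest in the wild-type library. Ppp1r17 had the third lowest log2 ratio on that scale and place 4 from the top by the quotient without it.

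The deposited bounds give a range for each quotient, from the lower knockout bound over the upper wild-type bound to the reverse. What the bounds cover is not given in the sources used here, so they are a description and not an error between animals. The FPKM quotients of Car8 (65.1-fold) and Itpr1 (39.3-fold) lay above their own ranges (42.8 to 59.2-fold and 32.8 to 38.3-fold). From midpoints Car8 was 49.8-fold and Gng13 54.2-fold, so the order of these genes turned. For Pcp2 the range was 153 to 406-fold. It lay above the ranges of all the other 8 genes, of which the highest end was 135-fold, for Ppp1r17. The range of Calb1 (78.0 to 117-fold) lay within that of Rgs8 (76.9 to 121-fold). Both lay above those of Itpr1 and Pcp4 (28.2 to 45.0-fold). The range of Slc1a6 (23.3 to 49.65-fold) overlapped both of these, so the order within the lowest 3 genes could not be read, while the gap between them and Rgs8 and Calb1 was wider than the bounds.

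**Figure D2:**
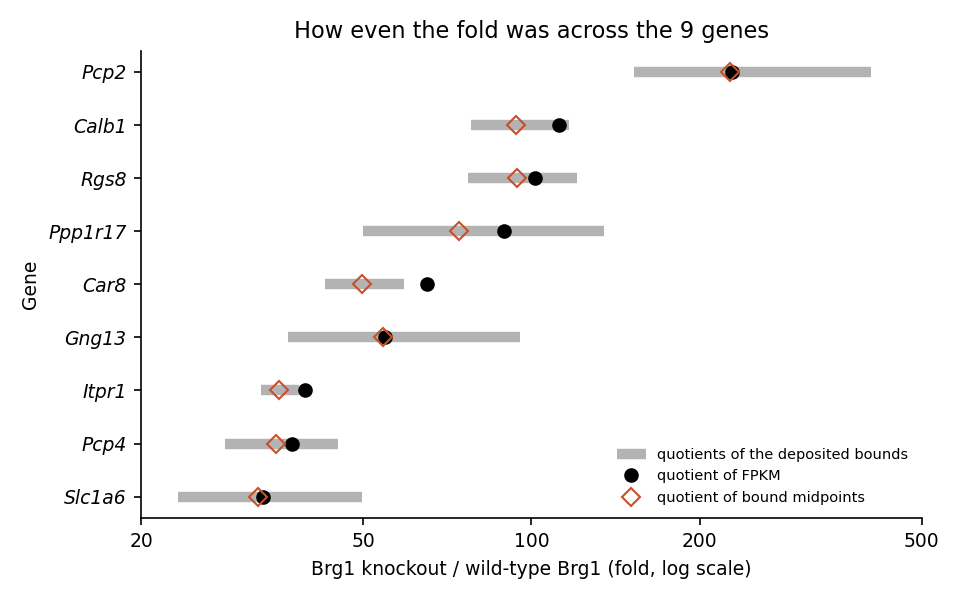
Quotient of knockout over wild-type level for each of the 9 genes (log axis), from FPKM (black points), from the midpoints of the deposited bounds (open diamonds) and from the bounds themselves (grey bars). Pcp2 (229-fold) lies apart from the other 8, and Itpr1, Pcp4 and Slc1a6 are lowest by both measures.

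The bounds also set a limit on the levels. FPKM lay within its own bounds for 5 of the 9 genes in the wild-type and 2 of the 9 in the knockout library, and for 51.0% and 48.8% of all expressed records. Pcp4 had FPKM of 0.488 times the midpoint of its bounds in the wild-type and 0.520 times in the knockout library. Itpr1 had 0.550 and 0.611 times. The offset was thus similar in both libraries for each of these genes, and the quotients from midpoints (34.9-fold for Pcp4 and 35.4-fold for Itpr1) stayed near those from FPKM. Levels compared between genes are less firm. Pcp2 over Pcp4 was 0.170 in the wild-type and 1.05 in the knockout library from FPKM, and 0.0842 and 0.547 from midpoints, so the quotient grew on both scales but Pcp2 exceeded Pcp4 only from FPKM.

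The levels were more alike in the knockout library. The highest of the 9 genes was 8.23 times the lowest in the wild-type library and 3.92 times the lowest in the knockout library, or 11.9 and 8.32 times by bound midpoints. Pcp4, Gng13 and Itpr1 held the top 3 places in the wild-type library, with 26.6%, 18.4% and 16.2% of the summed level. In the knockout library Calb1 (16.6%), Pcp2 (16.4%), Gng13 (15.9%) and Pcp4 (15.7%) held nearly equal shares by FPKM. By bound midpoints they did not, with 25.2% for Pcp4, 13.8% for Pcp2, 13.3% for Gng13 and 11.6% for Calb1. Across the 9 genes the levels of the libraries had a Spearman rho of 0.50, as a description over genes that share both libraries.

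The genes are spread over 7 chromosomes, and chromosomes 4 and 6 hold a pair each. Within 250 kb of the 9 genes lay 51 other expressed records, of which 9 (17.6%) were called higher and 2 lower, with a median log2 ratio of 0.18. The share called higher was near the 16.1% of all expressed records. Around Calb1, 0 of 4 neighbours were called, and the highest log2 ratio was 0.15, for Nbn. The highest neighbour of any of the genes was B3galt5 beside Pcp4, with a log2 ratio of 2.37. This lay below the 4.18 of Slc1a6, the lowest of the 9 genes, so no neighbour reached the size of their differences. The neighbours were unevenly spread, with 21 for Gng13, 11 for Pcp2, 2 for Pcp4 (of which 1 was called higher) and 1 for Ppp1r17. Car8 had 0, so nothing could be compared there.

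Other genes of the pathway were mostly higher too, but by less. Of 13 genes of the receptor steps, 9 were called higher and 0 lower, with a median log2 ratio of 2.29. The phospholipase gene Plcb4 had 1.27 and 15.0 FPKM (log2 ratio 2.81). Inpp5a, which encodes a phosphatase that removes inositol trisphosphate, had 10.1 and 64.0 FPKM (log2 ratio 2.55). The G protein alpha subunit genes Gnaq (21.1 and 34.3 FPKM) and Gna11 (23.0 and 21.3 FPKM), which many cell types express, stayed within 2-fold.

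Of 21 expressed genes of calcium channels, pumps, sensors and buffers, 18 were called higher and 0 lower, with a median log2 ratio of 1.91. Pvalb, which encodes the buffer parvalbumin of Purkinje cells and interneurons, had 10.9 and 293.8 FPKM (log2 ratio 4.63). Atp2a3, a pump gene of the endoplasmic reticulum, had 0.633 and 21.1 FPKM (log2 ratio 3.76). Cacna1g, a T-type calcium channel gene, had 0.386 and 15.1 FPKM (log2 ratio 3.54), and the channel subunit gene Cacna2d2 had 0.481 and 9.92 FPKM (log2 ratio 2.88). Calm2 (307.4 and 495.5 FPKM) and Calm3 (151.0 and 214.0 FPKM), which encode calmodulin, the target of Pcp4, were abundant in both libraries and stayed within 2-fold.

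Among the pathway and partner lists, binding partners and enzymes known to act with the 9 proteins differed least. Of 12, 3 were called higher and 0 lower, with a median log2 ratio of 0.74. The 3 higher included the G protein subunit genes Gnai1 (7.20 and 26.6 FPKM) and Gnb5 (13.0 and 32.0 FPKM). The other 9 stayed within 2-fold, and the lowest log2 ratio among them was -0.74, for the G protein subunit gene Gnai2. Prkg1, the kinase gene upstream of Ppp1r17, had 0.387 and 1.45 FPKM and a log2 ratio of 0.82, within 2-fold on this scale but 3.74-fold without the added 1 FPKM. Together 30 of 46 expressed pathway and partner genes were called higher, against 16.1% of all expressed records. On the scale of FPKM quotients without the added 1 FPKM, 4 of the 46 lay within the range of the 9 genes, against 100 of 13230 expressed records above 0 in the wild-type library, the 9 genes included. They included Cacna1g (39.1-fold), Atp2a3 (33.3-fold) and Camk2a (93.2-fold, from 0.0721 FPKM in the wild-type library). From bound midpoints 6 of the 46 lay within the range of the 9 genes.

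**Figure D3:**
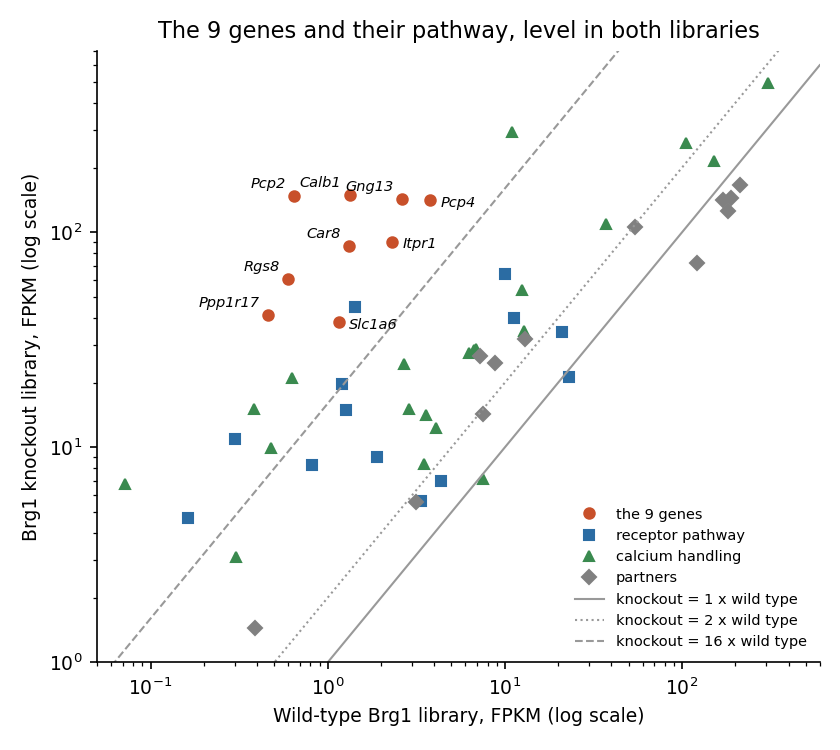
Level in the wild-type library against the knockout library in FPKM (both axes log) for the 9 genes (orange) and for expressed genes of other lists. These are the receptor steps (blue squares), calcium handling (green triangles), and binding partners and enzymes acting with the 9 proteins (grey diamonds). Lines mark equal, 2-fold and 16-fold higher levels, and all 9 genes lie above the 16-fold line while most partners lie near the line of equal levels.

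Relatives of the 9 genes in the same gene families were mixed. Of 32 expressed relatives, 12 were called higher and 4 lower, against 16.1% and 8.67% of all expressed records. The relatives had a median log2 ratio of 0.71. By FPKM, 0 lay within the range of the 9 genes, with or without the added 1 FPKM. From bound midpoints 1 did, Ppp1r1b. The highest were Calb2, the calretinin gene of unipolar brush and granule cells (1.99 and 38.3 FPKM, log2 ratio 3.72), and Ppp1r1b, another phosphatase inhibitor gene (0.830 and 20.2 FPKM, log2 ratio 3.53). From midpoints Ppp1r1b had 0.830 and 51.6 FPKM (62.1-fold, log2 ratio 4.84). For the receptor channels, Itpr2 had 0.561 and 2.06 FPKM and Itpr3 had 0.0524 and 0.550 FPKM, so that Itpr1 was the most abundant of the 3 in both libraries. Among glutamate transporters, the glial gene Slc1a3 was higher (106.0 and 371.1 FPKM, log2 ratio 1.80), while Slc1a4 (30.9 and 13.0 FPKM) and Slc1a5 (16.6 and 5.70 FPKM), which carry neutral amino acids, were lower. The gamma subunit gene Gng5 had 181.7 and 87.6 FPKM, lower by a log2 ratio of -1.04, or -0.69 from bound midpoints. The Rgs relatives ran from -1.07 for Rgs19 to 1.28 for Rgs7 on the log2 scale.

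Markers of Purkinje cell identity were mixed. Of 11 expressed, 7 were called higher and 0 lower, with a median log2 ratio of 1.74, and several of the 7 are on the pathway lists too. Rora, which encodes a nuclear receptor needed for Purkinje cell maturation, had 0.466 and 6.15 FPKM (log2 ratio 2.29). Itpka, an inositol trisphosphate kinase gene, had 0.163 and 4.69 FPKM (log2 ratio 2.29). The transcription factor genes Lhx1 (14.1 and 14.7 FPKM), Ebf1 (11.4 and 13.2 FPKM), Foxp2 (3.16 and 5.94 FPKM) and Ebf2 (5.08 and 3.33 FPKM) stayed within 2-fold. Skor2 and Lhx5, which mark Purkinje cells during development, stayed under 1 FPKM in both libraries and so were not counted as expressed. Skor2 had 0.00441 and 0.653 FPKM, and Lhx5 had 0.00219 and 0.528 FPKM. These are quotients of 148-fold and 241-fold over wild-type values close to 0. From bound midpoints they were 80.0-fold and 116-fold, with knockout levels of 1.08 and 1.79 FPKM. Of the transcription factor genes on the list, Rora was thus called higher, while Lhx1, Ebf1, Ebf2 and Foxp2 were not. Skor2 and Lhx5 were too low by FPKM to be counted either way. Their log2 ratios were 0.72 and 0.61 by FPKM, beside 0.74 for Foxp2, and 1.04 and 1.46 from bound midpoints.

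Other cerebellar cell types also had higher marker levels in the knockout. Of 10 granule neuron markers 9 were called higher (summed level 122.7 and 649.7 FPKM, wild-type library first, median log2 ratio 3.56), and 4 lay within the range of the 9 genes: Gabra6 (6.01), Cbln3 (4.95), Vsnl1 (4.93) and Slc17a7 (4.19). Of 9 interneuron markers 8 were called (68.4 and 565 FPKM, median 1.76), with Gad1 at 4.80 and Pvalb at 4.63. Purkinje cells express both of these too. On FPKM quotients without the added 1 FPKM, 4 interneuron markers lay within the range of the 9 genes, beside 3 granule neuron and 2 oligodendrocyte markers. The 4 were Gad2 (87.4-fold), Slc6a5 (71.2-fold), Slc32a1 (62.8-fold) and Gad1 (42.8-fold), while Pvalb (26.9-fold) lay below. Wild-type levels of Gad2, Slc6a5 and Slc32a1 were only 0.140, 0.0171 and 0.277 FPKM. Of 8 oligodendrocyte markers 8 were called (71.1 and 717 FPKM, median 3.17), with Mobp at 4.17. Unipolar brush cell (5 of 5, median 2.81), astrocyte and Bergmann glia (9 of 10, median 1.78) and microglia markers (7 of 8, median 1.27) were also higher. All markers of these lists that were expressed were above 0 in the wild-type library. The part of other cell types in the values of the 9 genes was not tested. Of 8 markers of forebrain neurons, some of which hold Calb1, Pcp4 or Itpr1, 3 were expressed and 0 were called higher, with a summed level of 14.3 and 9.69 FPKM.

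The 9 genes had the highest median of these lists, but not the smallest spread. The SD of their log2 ratios was 0.69, against 1.83 for granule neuron, 1.56 for interneuron, 0.82 for oligodendrocyte and 0.44 for microglia markers. On FPKM quotients without the added 1 FPKM the SDs were 0.91, 2.22, 2.13, 1.34 and 0.77. The spread of the 9 genes was therefore below that of the granule neuron and interneuron lists and above that of microglia on both scales. For unipolar brush cell markers the SDs were 0.84 and 0.75, above the 9 genes on the first scale and below them on the other. The lists differ in how their genes were chosen, and these differences in spread were not tested.

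**Figure D4:**
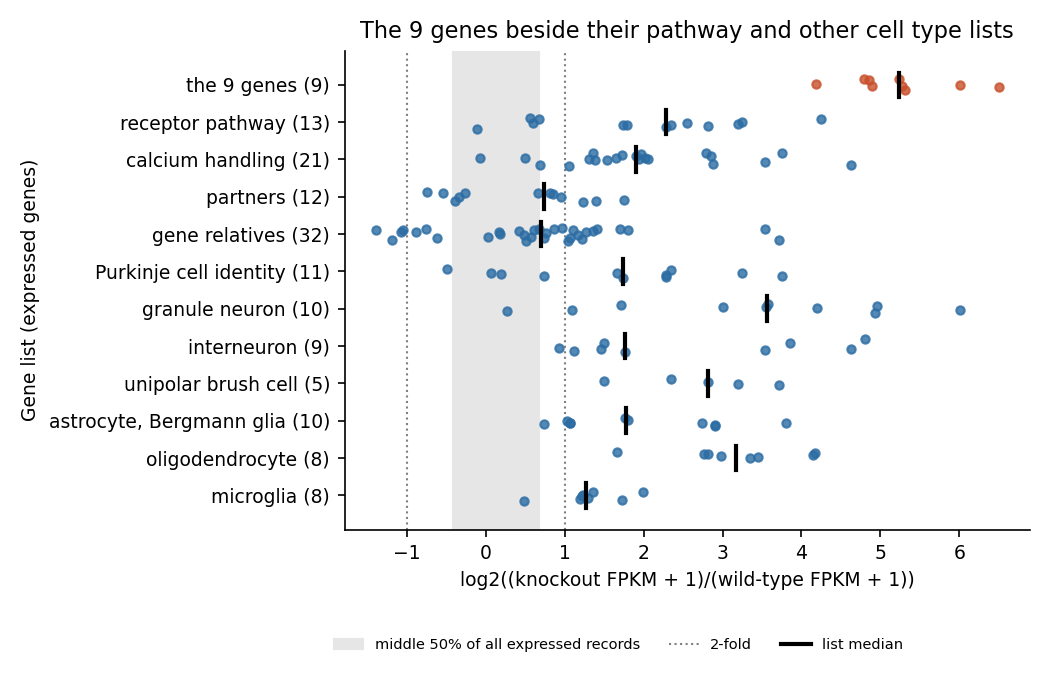
Log2 ratio of knockout over wild-type FPKM, with 1 FPKM added to each, for expressed genes of each list (points, number in brackets) with the list median (black bar). The 9 genes (orange, 4.18 to 6.50) lie to the right, the grey band holds the middle 50% of all expressed records, and dotted lines mark 2-fold.

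The records most like the 9 genes were taken as the 10 of at least 5 FPKM in the knockout library whose log2 ratio lay nearest the median of 5.23. Likeness over 2 libraries rests on this ratio alone. The 5 of them above 0 in the wild-type library included Snhg11, a non-coding RNA gene (3.31 and 161.8 FPKM), Agxt2l1 (0.830 and 66.1 FPKM), Cbln3 (0.916 and 58.4 FPKM) and Vsnl1 (1.25 and 67.8 FPKM). The other 5 were microRNA gene records listed at 0 in the wild-type library, for which no fold is given. Cbln3 and Vsnl1 are on the granule neuron list.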

How the data were processed

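Total RNA from 2 dissected mouse tumours was sequenced, 1 library per genotype. The authors deposited FPKM per gene with a lower and an upper bound in FPKM and a status, per the file headers. Cuffdiff 2.1.1 and the build mm10 are named, per the submitters' processing notes, with no role stated. The choice of aligner, annotation and filter is not given in the sources used here. No read counts could be recovered: of 650 records under 0.05 FPKM in both libraries, the fullest bin of knockout to wild-type ratios held 7.69%.

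Libraries were joined by record and locus. Starts in the files count from 0 and are given from 1. Ratios used an added 1 FPKM over 13279 records of at least 1 FPKM in 1 library, and a rule of size, 2-fold, took the place of a test. The step was tested on simulated data, with known fold changes placed only in records above the wild-type levels of the 9 genes. That test therefore did not cover fold changes at levels as low as theirs. Listed genes absent under their symbol were matched through RefSeq's older symbols (GRCm38.p6), which applied to 2.

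The 9 genes, the 15 lists and the rules were chosen with earlier results of these data known. Named are the 9 genes, Smarca4, up to 4 genes per list with the largest log2 ratio past 2-fold (or the 2 most abundant) and the 10 nearest records. Some genes this rule takes are not reported here. Other named list members, the neighbours and the overlapping records were picked once values had been seen. Alternatives were pseudocounts, scalings, filters, thresholds and bound midpoints. The tools were pandas 2.3.3 and numpy 2.4.6 under Python 3.11.15, with matplotlib 3.10.9 for figures.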

Additional observations from a re-analysis of the deposited data

How the results depend on the processing

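No paired analysis was possible because each genotype had 1 library, and no library could be left out. All 9 genes stayed at least 2-fold higher under every setting run: added values of 0.1 and 0.5 FPKM, 3 scalings to a sum or quartile, centring on the median, no filter or one of 5 FPKM, thresholds of 1.5-fold and 4-fold, bound midpoints, records of status OK only, and, chosen after seeing the data, no added value. Their median log2 ratio ran from 4.97 (bound midpoints) to 6.02 (no added value), and the SD of the log2 ratios from 0.53 (without Pcp2) to 0.91 (no added value). Scaling to the same FPKM sum moved the median of all expressed records from 0.09 to 0.24. With a 4-fold threshold, 15 pathway and partner genes were higher, and 554 of all records were higher and 199 lower. With a 1.5-fold threshold, 1 pathway or partner gene was lower, and 3727 of all records were higher and 2386 lower, against 30, 0, 2139 and 1151 at 2-fold; fewer or more records pass by the construction of these thresholds. The unknown depth and wild-type levels of 0.460 to 3.79 FPKM limit the precision of each quotient.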
